A study of Mus musculus with 54 samples.

Results

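Smc3 binding in cells that live on CTCF without zinc finger 1 was compared between neural progenitor cells (NPCs) and embryonic stem cells (ESCs). The peaks of 2 NPC and 2 ESC libraries were merged wherever they overlapped by at least 1 bp, which gave 41092 Smc3 sites, against 74568 sites when the 36 Smc3, Rad21 and CTCF peak lists used here were merged together. A site was called NPC-only when both NPC libraries and neither ESC library had a peak there, ESC-only in the reverse case, and shared when all 4 libraries had a peak. The same sorting was repeated with equal peak numbers, keeping in each library its top 12181 peaks by −log10 q, the length of the shortest list.

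The libraries came from chromatin immunoprecipitation and sequencing (ChIP-seq) of the mouse line E14Tga2, with an antibody against Smc3. The mutant rescue groups are named NPC-ΔZF1 and ESC-ΔZF1, with 2 libraries each, and the wild-type rescue groups NPC-WT and ESC-WT, also with 2 Smc3 libraries each. In all 4 groups both endogenous CTCF alleles carried an mAID-eGFP degron tag, OsTir1(F74G) sat in the Rosa26 locus, and a doxycycline-inducible Flag-Halo CTCF transgene, without zinc finger 1 (ΔZF1) or complete (WT), sat in the Tigre locus. For 24 hours all were given 5-Ph-IAA at 1 µM, to degrade the tagged endogenous CTCF, together with doxycycline at 1 µg/ml, to switch on the transgene. NPCs had been differentiated for 2 days in N2B27 medium on laminin, and ESCs were kept in N2B27 with serum, LIF and the inhibitors CHIR99021 and PD0325901. The WT and mutant rescue lines were made from the same single-cell clone of the degron line, so cell type was compared within 1 genetic background per rescue. Of the 36 lists, 4 (2 Smc3 and 2 CTCF) came from NPCs of the parental E14 line, which had neither degron nor transgene and were not given 5-Ph-IAA or doxycycline. They enter only the merged total. The peak lists hold no expression values, so neither the loss of zinc finger 1 nor the cell type labels could be checked against RNA.

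Smc3 is a core subunit of cohesin, the ring complex that extrudes chromatin loops and is held at sites where CTCF is bound to its motif in the right orientation. Rad21 is the subunit that closes the ring. Zinc finger 1 of CTCF binds RNA and lies outside the fingers that read the core motif.

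Sites that stand for each class are shown as the reference sequence of the 201 bp around the summit, on the plus strand of mm10 (RefSeq GRCm38). Capitals mark an exact match to the CTCF core motif CCANNAGNNGGC on either strand. The first 3 are the strongest NPC-only sites by the rule for named sites, and their windows hold no exact core.
near Eprn (chr13:73405849-73406049): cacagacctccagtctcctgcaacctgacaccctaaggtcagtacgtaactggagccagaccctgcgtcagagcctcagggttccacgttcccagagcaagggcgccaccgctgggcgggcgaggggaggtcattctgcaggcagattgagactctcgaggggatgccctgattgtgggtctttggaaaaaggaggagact
Gpr39 (chr1:125789862-125790062): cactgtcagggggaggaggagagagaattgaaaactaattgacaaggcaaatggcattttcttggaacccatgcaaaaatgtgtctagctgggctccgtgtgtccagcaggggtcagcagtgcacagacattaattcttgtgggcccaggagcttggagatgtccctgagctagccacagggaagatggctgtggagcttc
near Gm23342 (chr12:29068258-29068458): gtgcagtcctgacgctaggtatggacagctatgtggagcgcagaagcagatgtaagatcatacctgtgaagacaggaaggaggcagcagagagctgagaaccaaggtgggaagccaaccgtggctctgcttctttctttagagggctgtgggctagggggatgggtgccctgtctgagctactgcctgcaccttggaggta

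The next 3 are the strongest ESC-only sites. The windows near Etv5 and Gm44054 hold a core within 12 bp of the summit and the window near Adamts10 holds none. Of the 15 named sites of each class, 10 ESC-only and 4 NPC-only sites hold a core within 150 bp of the summit.
near Etv5 (chr16:22354326-22354526): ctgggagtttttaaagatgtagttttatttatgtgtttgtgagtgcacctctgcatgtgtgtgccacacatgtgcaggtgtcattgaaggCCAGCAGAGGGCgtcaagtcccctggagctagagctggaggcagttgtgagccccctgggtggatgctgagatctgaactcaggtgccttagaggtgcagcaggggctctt
near Adamts10 (chr17:33513985-33514185): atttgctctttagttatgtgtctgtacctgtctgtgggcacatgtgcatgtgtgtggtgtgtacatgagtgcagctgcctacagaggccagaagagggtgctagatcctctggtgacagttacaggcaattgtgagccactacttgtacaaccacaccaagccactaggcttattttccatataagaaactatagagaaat
near Gm44054 (chr6:50601693-50601893): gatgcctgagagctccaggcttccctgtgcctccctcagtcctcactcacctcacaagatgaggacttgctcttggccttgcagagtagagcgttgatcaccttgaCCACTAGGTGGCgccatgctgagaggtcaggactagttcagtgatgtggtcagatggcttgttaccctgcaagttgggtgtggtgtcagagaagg

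The last pair was shared by all 4 libraries and held the lowest p in each direction of rank, higher in NPCs for Ccdc162 and lower for the site near Gm49506. Both windows hold the core on the minus strand.
Ccdc162 (chr10:41678901-41679101): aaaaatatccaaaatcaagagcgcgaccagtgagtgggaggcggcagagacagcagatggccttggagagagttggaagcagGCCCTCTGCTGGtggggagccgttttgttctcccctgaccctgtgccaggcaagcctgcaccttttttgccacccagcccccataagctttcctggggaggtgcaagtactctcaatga
near Gm49506 (chr15:97536243-97536443): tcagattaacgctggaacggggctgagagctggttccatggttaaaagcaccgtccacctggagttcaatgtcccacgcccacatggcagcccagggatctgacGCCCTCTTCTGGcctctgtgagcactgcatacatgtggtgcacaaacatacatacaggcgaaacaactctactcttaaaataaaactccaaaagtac

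The NPC-ΔZF1 lists were longer than the ESC-ΔZF1 lists. The NPC-ΔZF1 libraries had 30516 and 34104 Smc3 peaks, and the ESC-ΔZF1 libraries 18023 and 12181. The groups did not overlap, with a difference of 1.12 in mean log2 peak number, but 2 against 2 libraries cannot give an exact permutation p below 0.333, which was the two-sided p found. The lowest local background, a relative measure of depth, was 2.19 and 2.99 fragments per bp in the NPC libraries and 2.26 and 2.05 in the ESC libraries, and its part in the list lengths was not tested. The paper calls the 2 Smc3 libraries of a group biological replicates, but the labels do not say whether they came from separate cultures. The p-values here therefore measure the spread between these libraries.

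**Figure D1:**
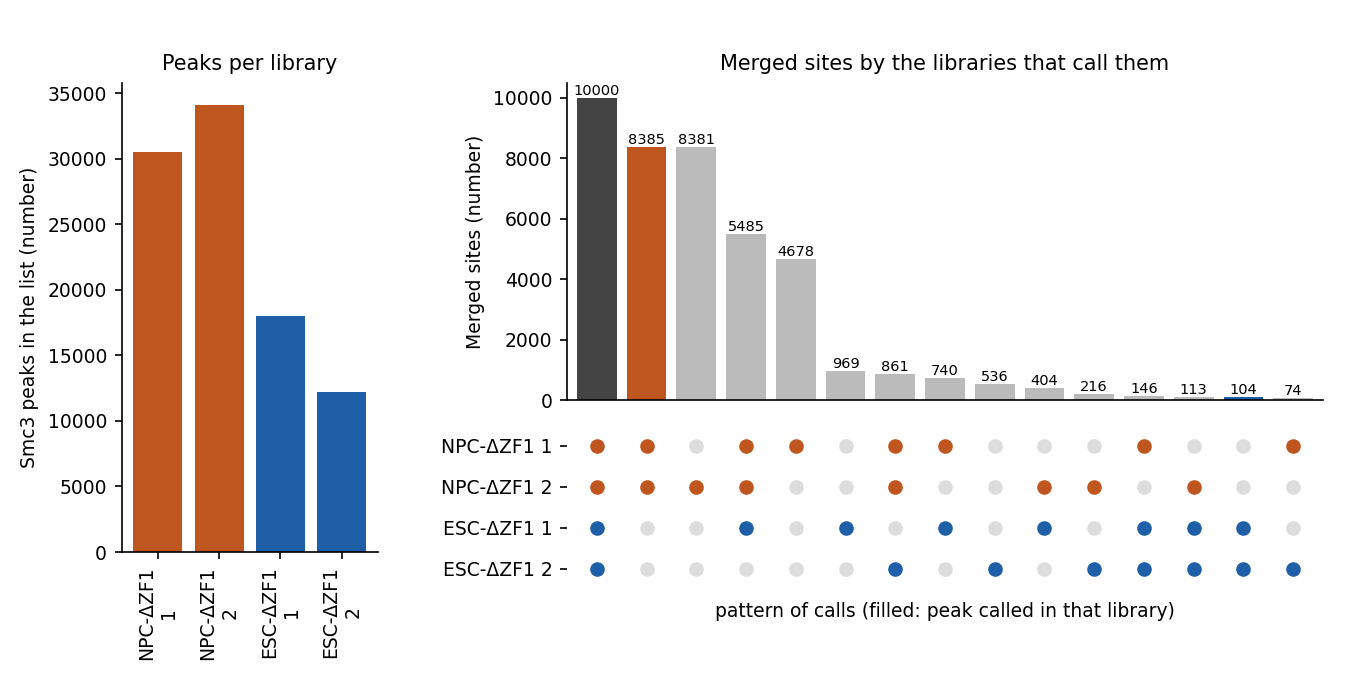
Left, the number of Smc3 peaks in each of the 4 ΔZF1 libraries. Right, the number of merged sites for each pattern of calls, where a filled dot below a bar means that the library has a peak. The 10000 shared and 8385 NPC-only sites are the tallest bars, and the ESC-only bar holds 104 sites.

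With all peaks, 8385 of the 41092 sites were NPC-only (20.4%) and 104 were ESC-only (0.253%), a ratio of 80.6. A further 10000 sites were shared. Of the 10363 sites called in both ESC-ΔZF1 libraries, 96.5% were also called in both NPC-ΔZF1 libraries (95% Wilson interval 96.1 to 96.8, counting error only). Of the 24731 sites called in both NPC-ΔZF1 libraries, 40.4% were called in both ESC-ΔZF1 libraries (39.8 to 41.0). NPC-only sites had a median within-library percentile of fold enrichment of 31.4 and 41.1 in the NPC libraries, against 80.4 and 82.6 at shared sites. ESC-only sites had 23.2 and 29.4 in the ESC libraries, against 68.8 and 57.9 at shared sites. The same libraries sorted the sites, and sites called in all 4 lists tend to be stronger by that rule, so this is a description. Another 5485 sites were called in both NPC libraries and ESC-ΔZF1 replicate 1 and missed in ESC-ΔZF1 replicate 2 alone.

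At equal peak numbers the excess of NPC-only sites was small. Of 17926 merged sites, 1216 were NPC-only (6.78%) and 813 were ESC-only (4.54%), a ratio of 1.5, and 7376 were shared. Both NPC libraries called 10499 of the sites and both ESC libraries 9000, so the 2 counts have different bases. The share of ESC-ΔZF1 sites retained in NPCs was 82.0% (81.1 to 82.7) and the share of NPC-ΔZF1 sites found in ESCs was 70.3% (69.4 to 71.1). The last peak kept had a −log10 q of 25.7 and 24.6 in the NPC libraries, 14 in ESC-ΔZF1 replicate 1 and 2.00 in ESC-ΔZF1 replicate 2, whose list was used whole. Most of the ESC-only sites found this way were present in the longer NPC lists, since 655 of the 813 (80.6%) had a peak in both whole NPC lists and 42 (5.17%) in neither. Of the 1216 NPC-only sites, 566 (46.5%) had a peak in the whole list of ESC-ΔZF1 replicate 1 and 650 (53.5%) had none in either ESC list. The 650 NPC-only and 42 ESC-only sites that kept their class under both countings are called switched under both countings below.

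Replicates resembled each other more than the other cell type, with 1 exception. The Jaccard index, the percent of the sites of 2 lists that both call, was 62.6% between the NPC-ΔZF1 libraries, 52.7% between the ESC-ΔZF1 libraries and 32.2% to 51.2% across cell types. At equal peak numbers it was 75.9% between the NPC libraries and 59.1% between the ESC libraries, and ESC-ΔZF1 replicate 1 shared more with the NPC libraries (63.6% and 62.4%) than with ESC-ΔZF1 replicate 2.

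The strongest NPC-only sites switched under both countings had fold enrichments of 13.2 to 25.1 over local background among the 15 named. An intergenic site 58565 bp from the start of Eprn (chr13:73405695-73406202) had a fold of 24.3 and 21.7 in the NPC-ΔZF1 libraries and no peak in either ESC-ΔZF1 library. An intronic site of Gpr39, a zinc-sensing G protein-coupled receptor, had 25.1 and 20.8 (chr1:125789782-125790154). A site near Gm23342 had 23.8 and 20.1, and an intronic site of Sergef had 18.8 and 21.2. Intronic sites of Map3k5, a stress-activated kinase, of Prx, a myelin protein gene, and of Vgll4, a TEAD cofactor, were also among the 15 strongest. The 4 with a CTCF core lay near Gm4995, near Gm20110, near Usp32 and in Prx.

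The 15 strongest ESC-only sites had folds of 6.23 to 13.5. A site 47403 bp from a start of Etv5, an ETS factor of the pluripotent epiblast, had a fold of 13.5 in both ESC-ΔZF1 libraries and no NPC-ΔZF1 peak (chr16:22354316-22354580). From fold and p this peak held 45 and 42 fragments over a local background of 2.41 and 2.18. A site near Adamts10, a metalloprotease of the extracellular matrix, had 10.4 and 8.52, and an intronic site of Cdh13, an atypical cadherin, had 11.3 and 7.54. A site near Gm44054 had 10.2 and 8.53. Each of the 15 except the one near Gm26105 had a peak in at least 1 of the NPC-WT Smc3 libraries, although they had none in NPC-ΔZF1.

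**Figure D2:**
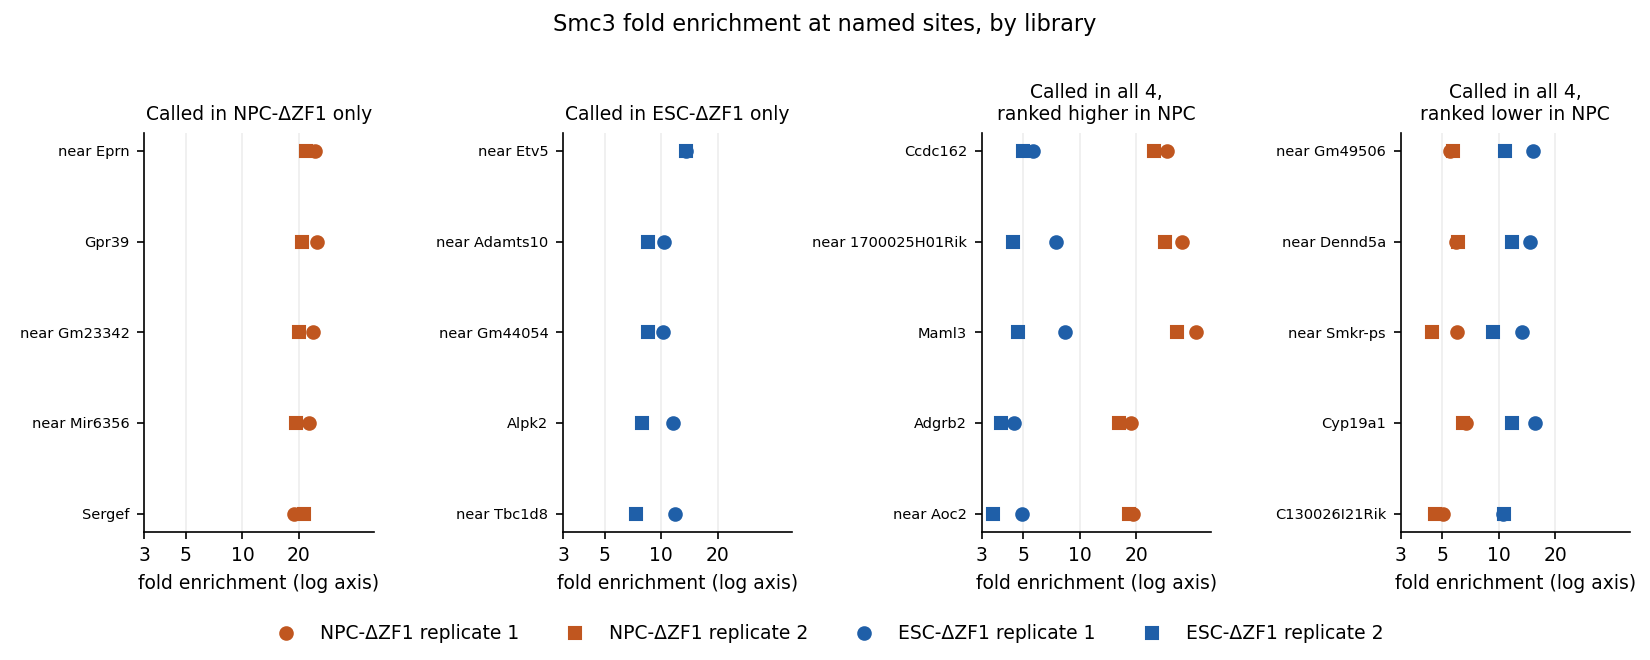
Fold enrichment (log axis) of Smc3 at the first 5 named sites of each class, with 1 point per ΔZF1 library (orange NPC, blue ESC, circle replicate 1, square replicate 2). Sites called in 1 cell type have no point for the other, and at the ranked sites the NPC and ESC points do not overlap.

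Shared sites also differed in rank between the cell types. Fold enrichments were ranked within each library and turned into normal scores, so that a difference is in SD units of rank and not a fold change. Of the 10000 shared sites, 688 ranked higher in NPC-ΔZF1 (6.88%) and 680 ranked lower (6.80%) by limma with a Benjamini-Hochberg adjusted p of at most 0.05, and 3093 had an unadjusted p under 0.05. Ranks force these directions to balance. Across the shared sites the scores correlated at 0.901 between the NPC libraries, 0.794 between the ESC libraries and 0.599 to 0.649 across cell types, a description over 10000 sites that share each library's depth. With −log10 q in place of fold, limma called 21 sites higher and 16 lower, and leaving out 1 library gave from 164 (without NPC-ΔZF1 replicate 2) to 1269 (without ESC-ΔZF1 replicate 1) higher and from 170 (without NPC-ΔZF1 replicate 1) to 1197 (without ESC-ΔZF1 replicate 1) lower.

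An intronic site of Ccdc162 had folds of 29.3 and 24.9 in NPC-ΔZF1 and 5.64 and 4.97 in ESC-ΔZF1, a score difference of 2.92 (SE 0.32, limma adjusted p = 0.00408). An intronic site of Maml3, a Notch coactivator, had 41.8 and 33.0 against 8.34 and 4.65, a difference of 3.16 (SE 0.37, limma adjusted p = 0.00408). An intronic site of Adgrb2, an adhesion receptor of the brain, had 18.8 and 16.2 against 4.43 and 3.81. In all of these the NPC and ESC folds were far apart. In ESC-ΔZF1 the Ccdc162 summit held 42 and 38 fragments over a local background of 6.63 and 6.84. Maml3 held 51 and 28 over 5.23 and 5.23, and Adgrb2 39 and 35 over 8.02 and 8.46. The NPC-ΔZF1 fragments and background were not recovered at these strong peaks. In the other direction, the site near Gm49506 had folds of 5.49 and 5.70 in NPC-ΔZF1 and 15.2 and 10.8 in ESC-ΔZF1, a difference of -2.84 (SE 0.33, limma adjusted p = 0.00408). Its summit fragments overlapped, with 29 and 36 in NPC-ΔZF1 and 49 and 32 in ESC-ΔZF1. Its local background was 4.47 and 5.49 against 2.30 and 2.05. An intronic site of Cyp19a1, the aromatase gene, had folds of 6.73 and 6.46 against 15.6 and 11.8. There the fragments were 34 and 30 against 58 and 44, over a background of 4.20 and 3.80 against 2.79 and 2.82. The part of the background in these ranks was not tested. The strongest site of all lay in Abca14, in an annotated untranslated region and 9 bp upstream of the nearest annotated start of the gene. It had folds of 105, 87.2, 62.2 and 51.6, the 100th percentile in every library and no difference in score (0.00, SE 0.32).

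**Figure D3:**
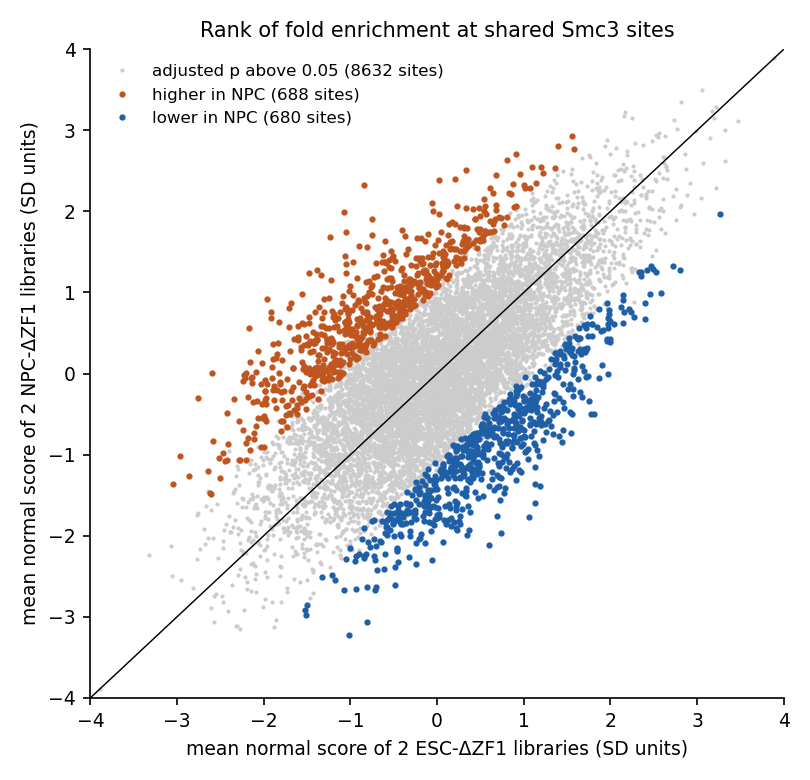
Mean normal score of fold enrichment rank in the 2 ESC-ΔZF1 libraries (x axis, SD units) and the 2 NPC-ΔZF1 libraries (y axis) at the 10000 shared sites. Orange points are the 688 sites ranked higher and blue points the 680 ranked lower in NPC-ΔZF1 by limma, on either side of the line of equal score.

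The WT rescue libraries did not choose these sites and mostly showed the same directions. The series holds inputs of the WT rescue and of parental NPCs, and none of the ΔZF1 rescue. Whether the WT and ΔZF1 lists of a cell type were called against the same input is not given. Their fold enrichments may therefore not be independent, which was not tested. Of the 688 sites ranked higher in NPC-ΔZF1, 373 had a peak in all 4 Smc3 WT libraries, and all 373 had a higher mean percentile in NPC-WT than in ESC-WT, against 67.6% of the 5843 shared sites with such peaks. Their median difference was 38.2 percentile points, against 6.90 over those shared sites. Of the 680 sites ranked lower, 383 had all 4 WT peaks and 340 of them (88.8%) were lower in NPC-WT, against 32.3%, with a median of -14.8 points. The test of the difference itself, the limma interaction of cell type and genotype, called 0 of 5841 sites (0%) at an adjusted p of 0.05, with 295 at an unadjusted p under 0.05. That count does not show that the mutant and WT rescues act alike.

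Calls in the WT rescue were then counted at the switched sites. The Smc3 WT lists were used whole, with 27798 and 13710 peaks in NPC-WT and 17880 and 8169 in ESC-WT. Of the 1216 NPC-only sites at equal peak numbers, 24.7% (22.3 to 27.2) had a peak in both NPC-WT and neither ESC-WT library, against 5.74% of all 17926 sites. Of the 650 switched under both countings, 194 (29.8%, 26.5 to 33.5) did. With all peaks it was 10.0% of the 8385 NPC-only sites, against 4.46% of all 41092. In reverse, 15 of the 813 ESC-only sites (1.85%, 1.12 to 3.02) were called in both ESC-WT and neither NPC-WT library at equal peak numbers, against 0.257% of all sites, and 6 of the 104 ESC-only sites with all peaks (5.77%, 2.67 to 12), against 0.153%. None of the 42 ESC-only sites switched under both countings did (0 of 42, Wilson interval 0 to 8.38%).

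Peaks of libraries that did not choose the sites were counted at each Smc3 class. For each library, the percent of ESC-only sites with a peak was taken from the percent of NPC-only sites with one, and these differences were compared between NPC and ESC libraries, at equal Smc3 peak numbers unless stated. In the Rad21 ΔZF1 libraries, NPC-only sites had a peak in 17.0% and 20.5% and ESC-only sites in 4.31% and 4.55% in NPCs. The ESC Rad21 ΔZF1 libraries had a peak at 0.164% and 0.329% of NPC-only sites and 1.35% and 4.67% of ESC-only sites. These ESC lists were short, with 1306 and 2347 peaks against 5117 and 6080 in NPCs. At shared sites they had a peak in 13.7% and 23.4%, against 45.4% and 53.8% for the NPC lists. The NPC and ESC differences were 14.3 ± 2.27 and -2.77 ± 2.23 points (mean ± SD, n = 2 each), and 2 against 2 libraries cannot pass an exact permutation test (p = 0.333, the smallest possible). The NPC minus ESC difference was 17.1 points at equal peak numbers and 5.27 points with all Smc3 peaks, and 2.15 to 7.12 points without 1 Smc3 library. In the Smc3 WT libraries the differences were 4.83 and 22.5 points in NPCs and -43.6 and -32.9 in ESCs.

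At equal Smc3 peak numbers the NPC and ESC CTCF libraries were apart in the WT rescue and overlapped in the mutant rescue. The contrast between the rescues was not itself tested. The 4 CTCF NPC-WT libraries had a mean difference of 7.18 ± 6.09 points (SD) and the 4 CTCF ESC-WT libraries -11.0 ± 5.21, and the groups did not overlap (two-sided exact permutation p = 0.0286, the smallest that 4 against 4 can give). CTCF NPC-WT replicate 3 by itself was at -0.141 points. With all Smc3 peaks, the main setting, the WT difference was 25.7 points (exact permutation p = 0.0571), and 3.29 points without ESC-ΔZF1 Smc3 replicate 1. Equal peak numbers was the only setting tried that gave the WT difference an exact p below 0.05. In the ΔZF1 rescue the CTCF means were 0.256 ± 7.74 in NPCs and -9.19 ± 5.62 in ESCs, and the groups overlapped (exact permutation p = 0.114). With all Smc3 peaks the ΔZF1 difference was 14.2 points (exact permutation p = 0.200), and it changed sign to -6.22 without ESC-ΔZF1 Smc3 replicate 1. CTCF replicates 1 and 4 had wider peaks than replicates 2 and 3. Within replicates 1 and 4 the all-peak difference was 27.8 points for ΔZF1 and 30.5 for WT, and within replicates 2 and 3 it was 0.645 and 21.0. The peak names inside the CTCF lists of replicate 4 carry the number 2, but the lists of replicates 2 and 4 differ in every group, as in NPC-ΔZF1 with 10242 and 33452 peaks.

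**Figure D4:**
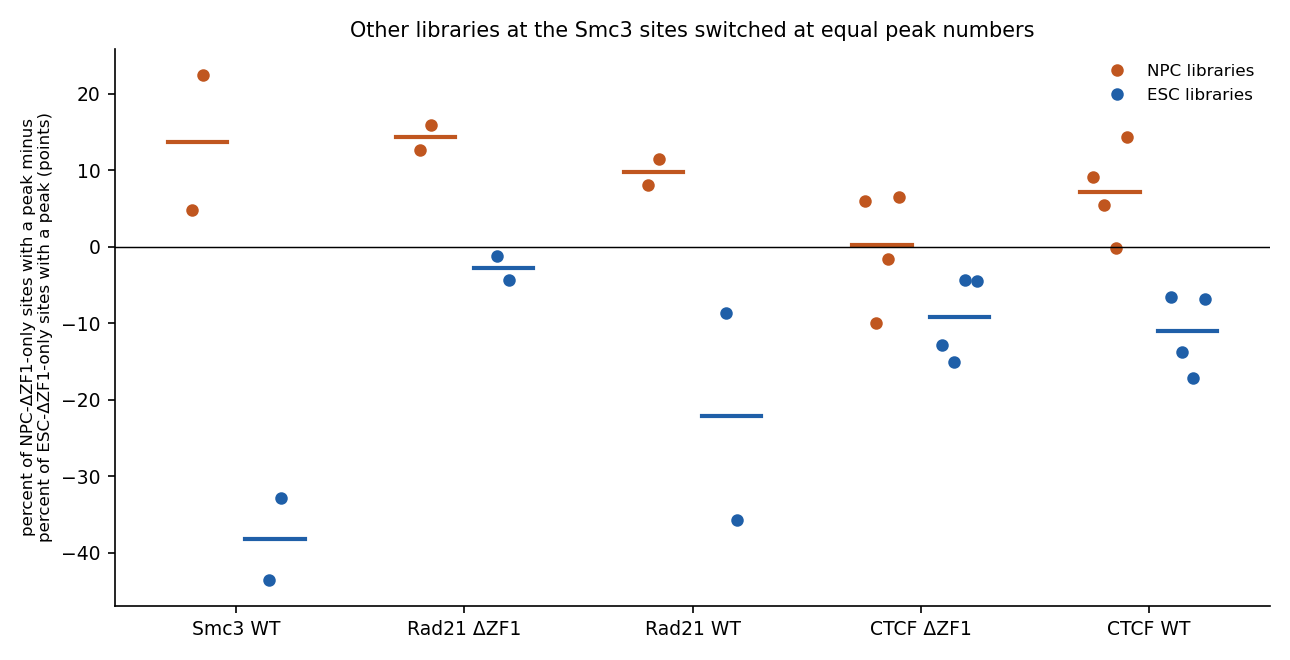
Each point is 1 library, placed by the percent of NPC-ΔZF1-only Smc3 sites minus the percent of ESC-ΔZF1-only Smc3 sites that hold its peaks, at equal Smc3 peak numbers (points, y axis), by antibody and rescue. Bars are means, and the NPC points (orange) lie above the ESC points (blue) without overlap in every set except CTCF ΔZF1.

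Rad21 peaks were also counted at the ranked shared sites, with no test. In the NPC Rad21 ΔZF1 libraries, 52.6% and 68.5% of the 688 sites ranked higher had a peak, against 36.2% and 43.0% of all shared sites and 16.5% and 19.6% of the 680 ranked lower. In the ESC Rad21 ΔZF1 libraries the order was reversed, with 4.94% and 9.88% at sites ranked higher, 10.5% and 18.4% at all shared sites and 14% and 24.4% at sites ranked lower.

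The classes were compared by sequence and position, as a description. At equal peak numbers the CTCF core lay within 150 bp of the summit at 38.1% of NPC-only, 53.8% of ESC-only and 48.3% of shared sites, against 44.5% of all sites. Sites ranked higher held it in 37.6% and those ranked lower in 55.0%. Where present it was close to the summit, at a median of 11 bp in NPC-only and 12 bp in ESC-only sites. Repeat-masked bases made up a mean of 16.0% of NPC-only, 28.5% of ESC-only and 12.4% of shared sites, and 8.84% and 21.4% of the sites ranked higher and lower. CpG-rich windows, with at least 55% GC and an observed over expected CpG ratio of at least 0.6, made up 7.15% of NPC-only and 2.95% of ESC-only sites, and 18.3% and 5.44% of the sites ranked higher and lower. Exact matches of the POU octamer ATGCAAAT were found at 1.23% of both switched classes and 1.29% of all sites.

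The difference in promoter share between the cell types was not the same with all peaks and at equal peak numbers. Of all peaks, 24.6% and 34.5% in NPC-ΔZF1 and 16.7% and 23.3% in ESC-ΔZF1 lay within 1 kb of a transcription start site (TSS), a difference of 9.56 points (exact permutation p = 0.333). At equal peak numbers the difference changed sign to -1.21 points, with the list of ESC-ΔZF1 replicate 2 used whole. Within ESCs the shorter list, replicate 2, had the larger share, and the part of list length was not tested. The CTCF core within 50 bp of the summit was found in 37.5% and 31.6% of NPC-ΔZF1 peaks and in 45.4% and 41.0% of ESC-ΔZF1 peaks, a difference of -8.64 points (exact permutation p = 0.333) that also changed sign, to 0.612, at equal peak numbers. At positions 1000 bp from the summits the core was found in 0.924% to 1.07%.

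**Figure D5:**
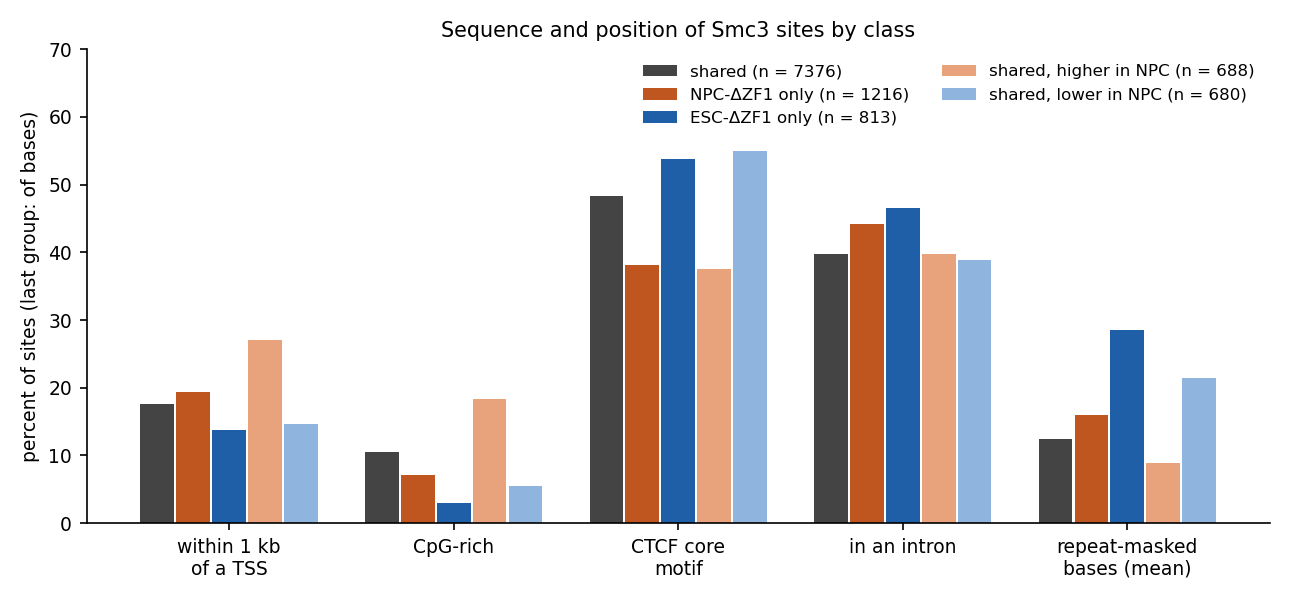
Percent of sites within 1 kb of a TSS, CpG-rich, with a CTCF core within 150 bp of the summit and in an intron, and the mean percent of repeat-masked bases, for the shared, NPC-only and ESC-only sites at equal peak numbers and the 688 and 680 shared sites ranked higher and lower. ESC-only sites and sites ranked lower have the larger CTCF core shares (53.8% and 55.0%) and repeat shares (28.5% and 21.4%).

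Genes of the neural and pluripotent programs were then examined by list. Of all 21910 protein-coding genes, 20.5% held an NPC-only site with all peaks, in the gene or within 1 kb upstream, and 0.246% an ESC-only site. Among neural progenitor genes, 23 of 50 (46.0%) held an NPC-only site and none an ESC-only site, and 74.0% of them held any Smc3 site, against 55.4% of all genes. Naive pluripotency genes had 10 of 28 (35.7%) with an NPC-only site, formative and primed epiblast genes 9 of 19 (47.4%), neuron genes 10 of 25 (40.0%), signalling genes of the WNT, FGF, BMP, SHH and Notch pathways 16 of 37 (43.2%), imprinted genes 13 of 37 (35.1%) and housekeeping genes 6 of 14 (42.9%). Hox genes had 8 of 39 (20.5%), cohesin and architectural genes 5 of 24 (20.8%), mesoderm and endoderm genes 3 of 21 (14.3%) and glia genes 1 of 10 (10.0%). None of the 5 genes of the study itself, among them Podxl and Grb10, held one. Shares above that of all genes were found in pluripotency, neural and housekeeping lists alike. With all peaks, ESC-only sites of listed genes lay in Klf2, a naive pluripotency factor (folds 2.69 and 3.97), and in an intron of Stag1, a cohesin subunit (6.44 and 5.90).

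Fewer listed genes held a switched site at equal peak numbers, where 2.95% of protein-coding genes held an NPC-only and 1.88% an ESC-only site. Among neural progenitor genes these were Olig2, Pax6 and Irx5 (3 of 50, 6%), all NPC-only. At Olig2, a factor of motor neuron and oligodendrocyte progenitors, the site had folds of 11.3 and 10.8 in NPC-ΔZF1 and no ESC-ΔZF1 peak. At Pax6, a regulator of neural progenitors, it had 8.90 and 8.45. Naive pluripotency genes had NPC-only sites in Pou5f1, which encodes Oct4, and Sall4 (2 of 28, 7.14%). The Pou5f1 site had folds of 11.9 and 8.59 in NPCs, no ESC peak and 2 CTCF cores. Neuron genes had NPC-only sites in Rbfox3, Elavl4 and Snap25 (3 of 25, 12%). Rbfox3, which encodes the neuronal splicing factor NeuN, held 4 of them, and the strongest had folds of 16.8 and 14.6. The median gene length was 69.0 kb for neuron, 37.1 kb for imprinted and 6.92 kb for neural progenitor genes. Over all protein-coding genes it was 17.4 kb, and the part of gene length in these shares was not tested. Imprinted genes had Mest, Plagl1 and the overlapping Peg13 and Trappc9 (4 of 37, 10.8%), with folds of 9.84 and 9.42 at the first of the 2 Mest sites. Gata3 and Krt8 of the mesoderm and endoderm list (2 of 21, 9.52%) and Fgfr1 and Fgfr2 of the signalling list (2 of 37, 5.41%) also held one. Of the genes named here, Irx5, Sall4, Elavl4, Snap25 and Plagl1 held no NPC-only site switched under both countings. In Rbfox3 3 of the 4 sites were switched under both countings, and in Fgfr2 1 of 2.

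ESC-only sites at equal peak numbers lay in Lef1 and Tcf7l1, transcription factors of the WNT pathway (2 of 19 epiblast genes, 10.5%), in Snap25, Mbp and Eef1a1, and in 5 places of Fgfr2. None of these genes held an ESC-only site with all peaks. At Lef1 the folds were 4.96 and 6.31 in NPC-ΔZF1 and 5.37 and 5.77 in ESC-ΔZF1, so the site was a peak in all 4 whole lists. The annotated Fgfr2 model runs from 130162451 to 133123350 on chromosome 7 and holds 81 sites, so most of its sites lie far from the gene's usual start. No Hox, cohesin or study gene held a site switched at equal peak numbers.

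Of protein-coding genes, 1.84% held a site ranked higher and 1.48% one ranked lower. Sites ranked higher lay in the naive pluripotency genes Esrrb and Stat3, and at Esrrb, an orphan nuclear receptor of the pluripotency network, the folds were 35.3 and 32.9 in NPC-ΔZF1 and 12.4 and 8.54 in ESC-ΔZF1 (score difference 1.62, SE 0.32, limma adjusted p = 0.0110). They also lay in Myc, Hoxc5, Gnas, Meg3, Hnf4a, Gli1, Actb and Fgfr2, and in the architectural genes Ctcf, Stag1 and Stag2. At Ctcf, 66 bp from its start, the folds were 11.5 and 12 against 4.02 and 3.82 (difference 1.90, SE 0.33, limma adjusted p = 0.00818). Sites ranked lower lay in Tcf7l1, Robo1, Snap25, Aldh1l1, Fgf15, Eef1a1 and Fgfr2. At Robo1, an axon guidance receptor, the folds were 20.1 and 13.3 in NPC-ΔZF1 and 25.5 and 15.7 in ESC-ΔZF1, which overlap as folds, and the score difference was -1.44 (SE 0.35, limma adjusted p = 0.0230).

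The genes Podxl and Grb10, whose RNAs the study truncated in other lines, held 6 Smc3 sites and none of them switched. Over all sites, 20.4% were NPC-only and 0.253% ESC-only with all peaks, and 6.78% and 4.54% at equal peak numbers. The 3 Grb10 sites were shared and did not pass limma (adjusted p = 0.0656, 0.579 and 0.121). The strongest had folds of 25.7 and 22.6 in NPC-ΔZF1 and 34.8 and 18.6 in ESC-ΔZF1. Of the 3 Podxl sites, the 2 intronic ones had a peak in both NPC libraries and in ESC-ΔZF1 replicate 1, with folds of 12.1, 10.8 and 7.08 at the first. The third, 328 bp downstream of the start, was weak, with folds of 2.49 and 2.85 in NPC-ΔZF1 and 3.55 in ESC-ΔZF1 replicate 2.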

How the data were processed

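Per the labels and the study's methods, the authors aligned reads to mm10 with Bowtie2, used SAMtools, Picard and bedtools to drop low-quality alignments, duplicates and blacklisted regions respectively, and ran MACS2 on each library by itself. Tool versions and the input behind each call are not given in the sources used here. The deposited narrowPeak lists hold the fold enrichment at the summit (a ratio of pileup to local background), −log10 p and −log10 q, and a display score, which was not used. The lowest −log10 q of the 4 lists was 2.00 to 2.03. These are not counts, so no count test was run. Total read depth is unknown. For peaks with moderate p the fold and p together gave whole fragments (within 0.002 in −log10 p), and the lowest background served as relative depth. Intervals cover counting error only.

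Sites were merged in Python 3.11.15 and annotated with GENCODE M21. Shared sites were tested with limma 3.58.1 on normal scores of the within-library fold rank (Benjamini-Hochberg over all shared sites, threshold 0.05), after a check on simulated data. Single values were compared by exact permutation over libraries. The named sites are the 15 strongest of each class switched under both countings, the 5 with the lowest p in each direction, the strongest shared site, and switched or ranked sites of listed genes. The sites, lists and tests were chosen with earlier results of these data known. Alternatives were equal peak numbers, a −log10 q of at least 5, other merging, another score, a replicate block and leaving out each library. The 8 lists of the PodxlpA and Grb10pA lines and the 10 inputs were not used here.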

Additional observations from a re-analysis of the deposited data

How the results depend on the processing

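NPC-only and ESC-only sites numbered 8385 and 104 with all peaks, 1216 and 813 at equal peak numbers by −log10 q, and 1437 and 950 at equal numbers by fold. Leaving out 1 library gave 9245 to 16936 NPC-only and 217 to 1073 ESC-only sites, since 1 list then stands for a cell type. The share of ESC sites retained was 82.0% and 78.9% at equal numbers by q and by fold, 96.9% at a −log10 q of at least 5, 95.8% with summits within 100 bp merged, and 86.2% to 97.9% without 1 library. The share of NPC sites found in ESCs was 70.3%, 65.6%, 41.9%, 41.3% and 29.7% to 62.6% under the same settings. The Jaccard difference was 16.8 points with all peaks, 8.54 and 10.1 at equal numbers by q and by fold, and 9.54 to 28.8 without 1 library. At equal numbers the TSS difference was -1.21 and the CTCF core difference 0.612 points, both of the opposite sign to all peaks. The CTCF ΔZF1 difference ran from -6.22 to 22.5 points without 1 Smc3 library, negative only without ESC-ΔZF1 replicate 1. The CTCF WT difference was 18.2 at equal numbers, the only setting where it passed its exact test.

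Sites ranked higher and lower by limma numbered 688 and 680, 21 and 16 with −log10 q, 383 and 376 among the sites above the median of mean rank (fewer sites tested), 193 and 202 at equal numbers by fold, and 164 to 1269 and 170 to 1197 without 1 library. With the replicate block they numbered 1098 and 1085. The replicate numbers share no stated culture or day, and the deviations of replicate 1 correlated at 0.121 over 10000 sites in the only comparison 2 pairs allow, so the numbers were not taken as pairing. With the block the CTCF differences had exact sign-flip p-values of 0.25 (ΔZF1) and 0.125 (WT), and limma called 0 interaction sites (396 had an unadjusted p below 0.05). Of the 10 named ranked sites, 4 (Ccdc162 and those near 1700025H01Rik, Dennd5a and Smkr-ps) missed the threshold with −log10 q. Only 3 could be tested at equal peak numbers by −log10 q, 2 at equal numbers by fold and 3 above the median of mean rank. Those passed, and the other named ranked sites, all the sites ranked lower among them, were not in these fits. The cause of the other shifts was not tested.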
